A study of Saccharomyces cerevisiae with 6 samples.

Results

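The proteasome is the large protease that degrades proteins marked with ubiquitin, and the genes described here encode its subunits, its assembly factor Ump1 and its transcription factor Rpn4 in the yeast Saccharomyces cerevisiae. The 34 genes were taken by name: the 7 alpha and 7 beta subunits of the 20S core, 10 subunits of the base and 8 of the lid of the 19S cap, UMP1 and RPN4. All 34 were found among the 6442 genes listed, and all 34 were among the 5904 genes with enough counts to be tested. The study sequenced RNA of 6 libraries, 3 labelled H0 and 3 labelled S3, to compare the transcriptome of a strain rearranged by SCRaMbLE with that of its parent. SCRaMbLE is recombination by Cre at loxPsym sites placed along a synthetic chromosome.

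The study's text describes transcriptomes of only yJBH000 and yJBH012, and H0 and S3 were taken as these strains. yJBH000 is a haploid strain whose chromosome V is the synthetic synV, with the carotenoid genes crtE, crtI and crtYB and a Leu2 marker integrated at CAN1. yJBH012 is 1 colony obtained from yJBH000 after Cre-EBD, driven by the GAL1 promoter on the plasmid pCRE4, had been induced with galactose and estradiol. It had lost YEL014C and its neighbour YEL013W, which is VAC8, a gene of the vacuole membrane. The groups therefore share synV and the carotenoid genes. The GEO labels record the same genotype (synV) and the same variation (genome rearrangement) for both, so the title alone separates them. Whether pCRE4 was still present in the sequenced cultures is not given in the sources used here. The labels give 12 h of flask culture at 250 rpm and 30 °C, and the study's methods give YPD medium and exponential phase. Nothing in the labels says that the 3 libraries of a group came from separate cultures, so p-values measure the spread between these libraries, which may be technical.

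The total counts ran from 23340054 to 25333938 in H0 and from 17675299 to 21568860 in S3. VAC8 had between 2216 and 2532 counts in the H0 libraries and between 0 and 1 in the S3 libraries. The cells were labelled as yeast only. In H0 the mean levels of the listed a-type genes ran from 9.82 CPM (ASG7) to 630 CPM (STE2). Of the listed alpha-type genes, MF(ALPHA)1 had 0.433, STE3 8.67, MF(ALPHA)2 10.9 and SAG1 54.6 CPM, so the lists overlapped. Replicate 1 of H0 stood apart: its chi-square statistic, divided by the degrees of freedom, was 84.1 and 86.5 against the other H0 libraries, which gave 7.21 between them. Of the genes tested, 36.2% were lower and 34.2% were higher in S3 (edgeR's quasi-likelihood test, adjusted p under 0.05), so most of the transcriptome differed and each count of proteasome genes is read against these shares.

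As background, the 26S proteasome consists of a barrel, the 20S core particle, and a cap at its ends, the 19S regulatory particle. Rings of alpha subunits close the barrel and gate the entry of substrates, and rings of beta subunits hold the proteolytic sites. The base of the cap contains a ring of ATPases, Rpt1 to Rpt6, that unfold a substrate, and the lid contains Rpn11, which removes the ubiquitin chain. In yeast the genes for these subunits are activated by Rpn4, which binds an element called PACE in their promoters and is itself degraded rapidly by the proteasome.

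The element upstream of the genes is shown first. PACE is known from the promoters of proteasome genes, so its share among the members describes them and is not a test. The letters GGTGGCAAA were searched on both strands in the 500 bases before each start codon of the R64 reference genome (RefSeq). They were found in 27 of the 34 genes (79.4%) and in 98 of the 5980 upstream regions of the genome (1.64%). Each of the 27 had 1 copy, whose first base lay between 84 bases (RPT6) and 183 bases (PUP3) before the start codon, with a median of 120.0. The copy was in the direction of the gene in 19 and in the opposite direction in 8. In genes that are not members 73 copies were found, with a median distance of 238.0 bases, and 19 of them lay within the range of the members. The following windows hold the copy in capitals with 10 bases on each side, read along the strand of the motif, for the genes whose RNA fell most, the core subunit and the ATPase that passed no test, and the 2 genes of the catalytic sites that have the motif.
PRE6, chrXV:255218-255246, gene on the plus strand, motif on the minus strand: tttcccttccGGTGGCAAAagaatcttcg
RPT5, chrXV:544855-544883, plus strand: gccaatatgtGGTGGCAAAaatgaattaa
RPT4, chrXV:813802-813830, gene on the minus strand, motif on the plus strand: ctttcccttcGGTGGCAAAttccactatt
RPT1, chrXI:174048-174076, gene on the plus strand, motif on the minus strand: ttagttttcgGGTGGCAAAattcggtaat
SCL1, chrVII:475337-475365, gene on the minus strand, motif on the plus strand: ctatccttacGGTGGCAAAttggtgtgtg
PRE3, chrX:435035-435063, plus strand: aacggaatccGGTGGCAAAaaagggaaaa
PRE2, chrXVI:732184-732212, plus strand: acagcaaaagGGTGGCAAAacgaagaata
RPT6, chrVII:411352-411380, minus strand: atgcgagcgaGGTGGCAAAagttgtaata
PUP3, chrV:349511-349539, minus strand: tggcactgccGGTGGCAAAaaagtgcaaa
The window of PUP3 is from the native chromosome V, and synV was not used here. The full 9 letters are thus present in PUP3 and RPT6 as they are in PRE6 and RPT5.

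The 7 genes without the 9 letters were PRE5, PUP1, RPN8, RPN10, RPN13, UMP1 and RPN4. The shorter word GTGGCAA, which is contained in the 9 letters and was searched after the UMP1 sequence had been seen, was present in 32 of the 34 genes (94.1%) and in 7.59% of all upstream regions, and RPN13 and RPN4 were the members without it. In UMP1 it lay 112 bases before the start codon, inside the distance range above. This stretch of UMP1 is shown because its gene fell strongly without the full motif, with the 7 letters in capitals.
UMP1, chrII:582242-582312, minus strand: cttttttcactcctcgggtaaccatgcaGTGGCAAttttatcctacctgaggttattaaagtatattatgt

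RPN4 had no PACE copy and had matches of other kinds. Yap1 (an oxidative stress activator), Pdr1 and Pdr3 (activators of drug resistance genes) and Hsf1 (the heat shock factor) are known to activate RPN4. The letters of a Yap1 element, TTACTAA, occurred 374 bases before its start codon. The letters of a Pdr1 element, TCCGTGGA, occurred 442 bases before it and, on the opposite strand, 399 bases before it. A heat shock element, searched as 3 alternating GAA and TTC units with any NN between units, on both strands and starting with either unit, matched 348 and 21 bases before it. RPN4 was the only member with the Pdr1 letters (1.04% of all upstream regions) or the heat shock element (1.47%), while TTACTAA was present in 6 members (17.6%) and in 11.8% of all upstream regions. The variant TCCGCGGA was present in 0 members and in 0.635% of all upstream regions. In RPN4 the matches do not overlap one another. The stretch from 450 to 330 bases before the start codon is printed because it holds 4 of the 5 matches, in capitals in the order Pdr1, Pdr1 reversed, Yap1 and heat shock element.
RPN4, chrIV:417038-417158, minus strand: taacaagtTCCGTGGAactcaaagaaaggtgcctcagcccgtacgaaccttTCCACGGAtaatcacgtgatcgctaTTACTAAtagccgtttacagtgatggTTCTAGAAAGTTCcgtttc
These matches describe the letters of the reference genome and are not measured binding.

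The proteasome genes were lower in S3 almost throughout. Of the 34 genes, 31 fell (background 36.2%), 0 rose (background 34.2%) and 3 passed no test, namely PUP3, RPT6 and RPN4. The gene list was chosen with earlier results of these data known, so these counts describe the list and do not test it. The median log2 fold change was -0.55 over the 34 genes, against -0.01 over all genes tested, and their quartiles were -0.80 and -0.43. Only PRE6, RPT5 and RPT4 fell beyond 1 on the log2 scale, which 4.98% of all genes did. In 32 of the 34 every S3 library lay below every H0 library in CPM, the count of a gene relative to the library's TMM-scaled total, which held for 38.6% of all genes tested; the exceptions were PUP3 and RPN4. Since bulk RNA was measured, fewer cells with a transcript and less RNA per cell cannot be told apart.

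The size of the fall depended on how libraries were scaled. With total counts in place of TMM factors, the median of all genes moved from -0.01 to -0.35 and that of the 34 genes to -0.89, and 74.8% of all called genes were lower, against 51.4% with TMM. Relative to the median of all genes the members stood at -0.54 under both scalings. Under total counts 57.6% of all genes were lower and 19.4% higher, and of the members RPT6 also fell, which made 32. RPN4 and PUP3 then changed sign, to -0.09 and -0.20, and passed no test.

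**Figure D1:**
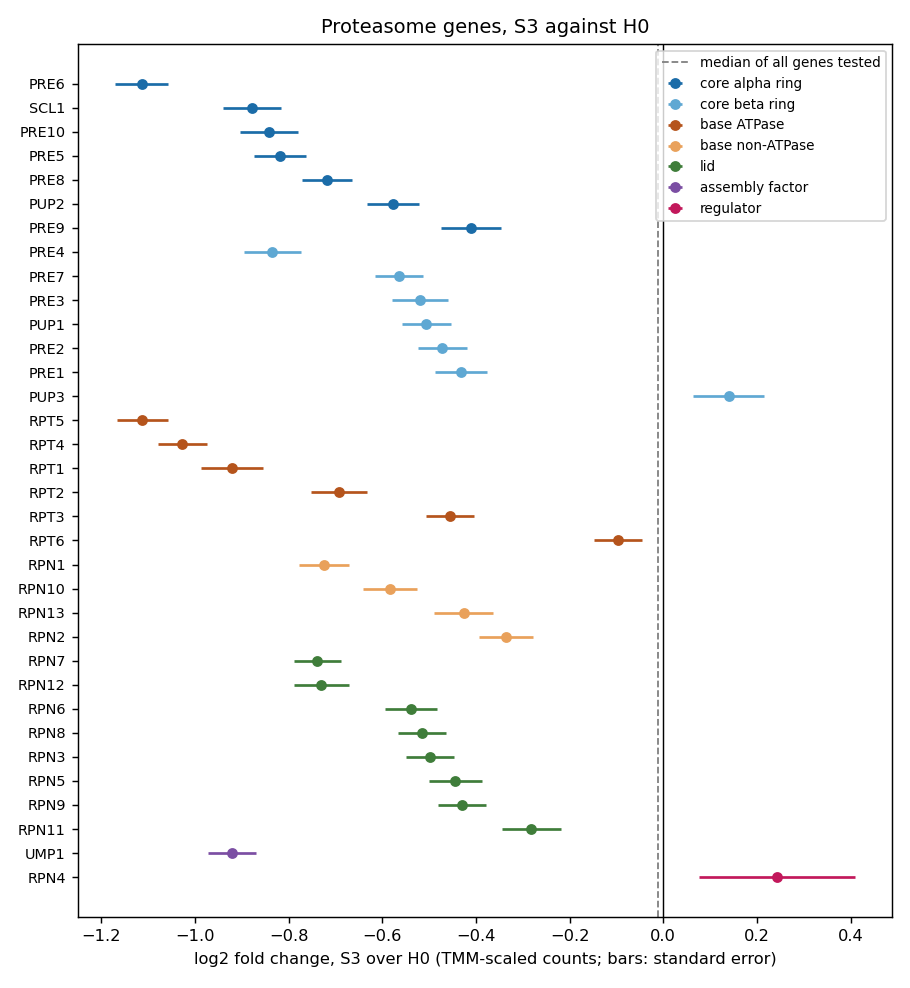
Log2 fold change of S3 over H0 (x axis, TMM-scaled counts, points, with standard errors as bars) for the 34 genes (y axis), coloured by their place in the proteasome; the dashed line is the median of all genes tested (-0.01). PRE6, RPT5 and RPT4 lie below -1, and PUP3 and RPN4 are the points to the right of 0, where total-count scaling would place them to its left.

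All 7 alpha ring genes fell, with a median of -0.82. The alpha subunits form the outer rings, and their amino ends make up the gate. PRE6, which encodes subunit alpha 4, fell most of the ring. Its CPM was 453, 442 and 437 in the H0 libraries and 197, 206 and 212 in the S3 libraries. The groups were far apart, and the log2 fold change was -1.11 (SE 0.056, adjusted p = 5.47e-06 by edgeR's quasi-likelihood test), which left 46.2% of the H0 level. PRE9, the gene of alpha 3 and the core subunit gene that yeast can live without, fell least. Its CPM was 309, 339 and 317 in H0 and 232, 239 and 254 in S3, a log2 fold change of -0.41 (SE 0.063, adjusted p = 0.000791 by the same test). The lowest H0 library of PRE9 was still above its highest S3 library. Between these lay SCL1 at -0.88, PRE10 at -0.84, PRE5 at -0.82, PRE8 at -0.72 and PUP2 at -0.58.

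Of the 7 beta ring genes 6 fell, with a median of -0.51 over the 7. The 3 proteolytic activities reside in Pre3 (beta 1, cleavage after acidic residues), Pup1 (beta 2, after basic residues) and Pre2 (beta 5, after hydrophobic residues). These 3 genes fell by similar amounts. PRE3 had 345, 357 and 357 CPM in H0 and 241, 237 and 261 in S3, a log2 fold change of -0.52 (SE 0.059, adjusted p = 0.000161 by edgeR). PUP1 had 253, 253 and 245 CPM in H0 and 169, 178 and 182 in S3, a log2 fold change of -0.51 (SE 0.053, adjusted p = 0.000104 by edgeR). PRE2 had 407, 413 and 407 CPM in H0 and 293, 288 and 304 in S3, a log2 fold change of -0.47 (SE 0.053, adjusted p = 0.000153 by edgeR). In none of the 3 did the groups overlap. PRE4, the gene of the noncatalytic beta 7, fell most of this ring, from 403, 417 and 402 CPM to 222, 221 and 242 (-0.83, SE 0.060). PRE7 (beta 6) followed with -0.56 and PRE1 (beta 4) with -0.43.

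PUP3, which encodes the noncatalytic beta 3, was the core subunit gene that did not fall. Its CPM was 208, 177 and 177 in H0 and 200, 208 and 210 in S3. Replicate 1 of H0 lay among the S3 libraries, and the other H0 libraries lay below all of them. The log2 fold change was 0.14 (SE 0.075, adjusted p = 0.133 by edgeR), and without replicate 1 of H0 it was 0.22 and was called (adjusted p = 0.000548 by edgeR). PUP3, PRE1 and RPN3 are the 3 members on chromosome V, which is synthetic in both strains, and the other members lie on 12 further chromosomes. PRE1 and RPN3 fell, by 0.43 and 0.50 on the log2 scale.

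**Figure D2:**
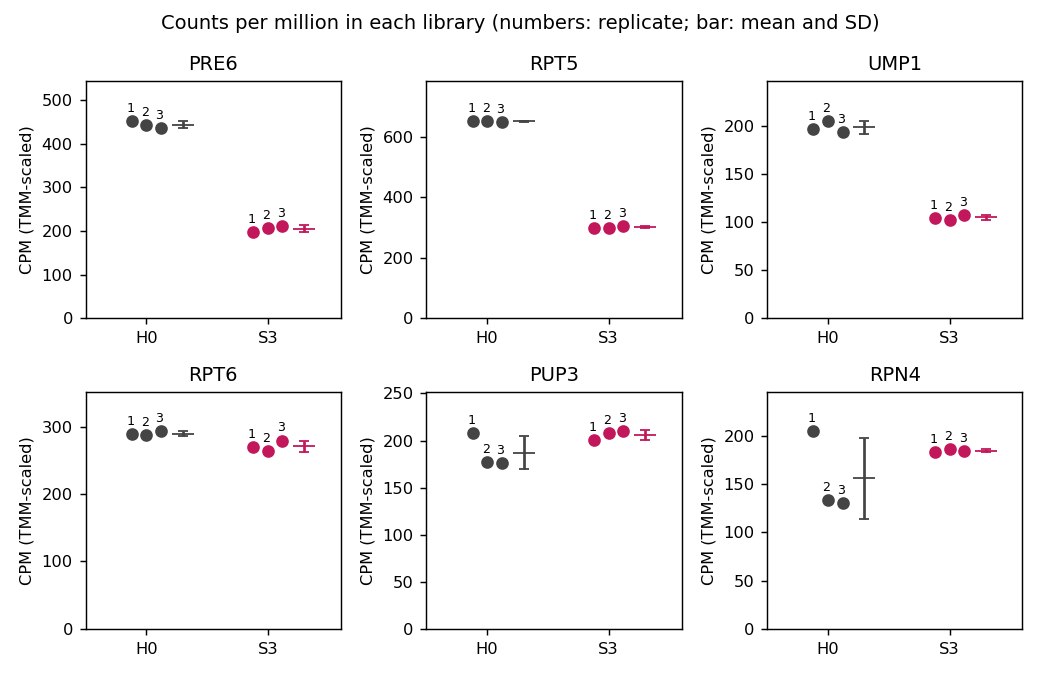
CPM (y axis, TMM-scaled, linear from 0) of 6 proteasome genes in the 3 H0 and 3 S3 libraries; each point is a library with its replicate number, and the bar beside the points is the mean with its SD (n = 3). PRE6, RPT5 and UMP1 are at about 46% to 53% of their H0 level in S3, RPT6 differs little, and in PUP3 and RPN4 replicate 1 of H0 is above the other H0 libraries.

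The ATPases of the base had the widest range of the groups, from -1.11 to -0.10. Of the 6 genes, 5 fell, and the median over the 6 was -0.81. RPT5 fell most, from 654, 652 and 650 CPM to 299, 299 and 307. Each group was tight, and the log2 fold change was -1.11 (SE 0.055, adjusted p = 4.82e-06 by edgeR). RPT4 fell from 476, 490 and 469 CPM to 234, 233 and 237, a log2 fold change of -1.03 (SE 0.053). RPT1 was at -0.92, RPT2, whose product helps to open the core, at -0.69 and RPT3 at -0.46. RPT6 was the member that was almost level. Its CPM was 289, 287 and 293 in H0 and 269, 264 and 279 in S3, so the S3 libraries were the lower ones without overlap, but the log2 fold change of -0.10 (SE 0.051) passed no test (adjusted p = 0.127 by edgeR). It was called without replicate 1 of H0, with the same -0.10 (adjusted p = 0.0441 by edgeR). The ATPase genes resemble one another and other AAA genes such as CDC48 in stretches only: no alignment covered more than 46.6% of a member or had more than 81.5% identity, so near-identical copies that could share reads were not found.

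The 4 other genes of the base all fell, with a median of -0.51. RPN1, a large scaffold that docks ubiquitin-like proteins, had 558, 572 and 561 CPM in H0 and 335, 345 and 343 in S3, the largest fall of the 4 (-0.72, SE 0.054, adjusted p = 2.35e-05 by edgeR). RPN2, the other large scaffold, had 566, 560 and 535 CPM in H0 and 432, 441 and 443 in S3, the smallest fall (-0.34, SE 0.057, adjusted p = 0.00131 by edgeR). The groups of both genes were apart. The ubiquitin receptor genes RPN10 and RPN13 lay between them, at -0.58 and -0.43.

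All 8 lid genes fell, with a median of -0.51. RPN7 fell most, from 302, 313 and 313 CPM to 185, 189 and 182 (-0.74, SE 0.050, adjusted p = 1.58e-05 by edgeR). RPN11, the gene of the deubiquitinase, fell least, from 360, 347 and 337 CPM to 300, 269 and 290 (-0.28, SE 0.063, adjusted p = 0.00511 by edgeR). The lowest H0 library of RPN11 was above its highest S3 library, and this was the smallest change among the 31 that fell. RPN12 was at -0.73, RPN6 at -0.54, RPN8 at -0.51, RPN3 at -0.50, RPN5 at -0.44 and RPN9 at -0.43. Over whole particles, 13 of the 14 core genes fell with a median of -0.57 and 17 of the 18 genes of the cap with a median of -0.53.

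UMP1 encodes a chaperone that is enclosed in assembling core particles and is the first substrate they degrade. Its CPM was 197, 206 and 193 in H0 and 104, 102 and 108 in S3. The groups did not overlap, and the log2 fold change was -0.92 (SE 0.051, adjusted p = 7.99e-06 by edgeR), which was similar to that of RPT1 and smaller than those of PRE6, RPT5 and RPT4.

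RPN4, the gene of the activator, did not move with its known target genes. Its CPM was 205, 134 and 130 in H0 and 184, 186 and 185 in S3. The S3 libraries were alike, whereas replicate 1 of H0 was above all of them and the other H0 libraries were below all of them. The log2 fold change was 0.24 (SE 0.17, adjusted p = 0.227 by edgeR), the largest standard error among the 34 genes. Without replicate 1 of H0 it was 0.49 and RPN4 was called higher in S3 (adjusted p = 2.04e-06 by edgeR). In that H0 library RPN4 was at 1.31 times the H0 mean while the median over the 32 subunit genes was at 1.001 times theirs; the part of the library's general deviation in this was not tested. TMA17, a gene of a proteasome assembly chaperone, named after its values were seen, was also high in that library, with 289 CPM against 192 and 207 in the other H0 libraries and 191, 197 and 224 in S3.

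Levels were compared between genes on the FPKM scale, which divides counts by gene length and library total. Core genes were the most abundant: the median FPKM in H0 was 618 for the alpha ring, 531 for the beta ring, 430 for the base ATPases, 305 for the other base genes and 304 for the lid. SCL1, the gene of alpha 1, had the highest mean level in both groups (896 ± 16.2 in H0 and 387 ± 18.0 in S3, SD, n = 3) and RPN9 the lowest (147 ± 5.98 and 86.6 ± 2.25). PRE7 was within the spread of SCL1 in S3 (379 ± 2.08), and in replicate 1 of S3 it was above SCL1 (381 against 370). In S3 the median FPKM of the alpha ring (277) was below that of the beta ring (304). PRE6 moved from rank 4 of the 32 subunits in H0 to rank 15 in S3 and RPT5 from 9 to 20, whereas PUP3 moved from 22 to 7. PUP3, PRE1 and RPN3 lie on synV, and which chromosome V sequence their reads were aligned to is not given. An effect of this on their levels and ranks was not tested. Neighbours in the order were often within their spread, for example PRE2 (531 ± 6.11) and PUP2 (529 ± 18.5) in H0 or PRE2 (304 ± 6.20) and PRE1 (304 ± 10.9) in S3.

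The subunit levels were closer to one another in S3 than in H0. The highest over the lowest FPKM was 6.10 ± 0.14 in the H0 libraries and 4.51 ± 0.21 in the S3 libraries (mean ± SD, n = 3). The SD of log2 FPKM over the 32 genes was 0.60, 0.62 and 0.62 in H0 and 0.53, 0.54 and 0.56 in S3, and the groups did not overlap. Over all genes the same SD ran from 2.08 to 2.12 in H0 and from 2.17 to 2.18 in S3, in the opposite order. As a description over 32 genes that share libraries, Pearson's r between log2 mean FPKM in H0 and S3 was 0.89 and Spearman's rho was 0.84, and r over all 5904 genes tested was 0.92. Together the 32 genes took 1.40% ± 0.024 of all counts in H0 and 0.717% ± 0.012 in S3, on the scale of total counts.

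**Figure D3:**
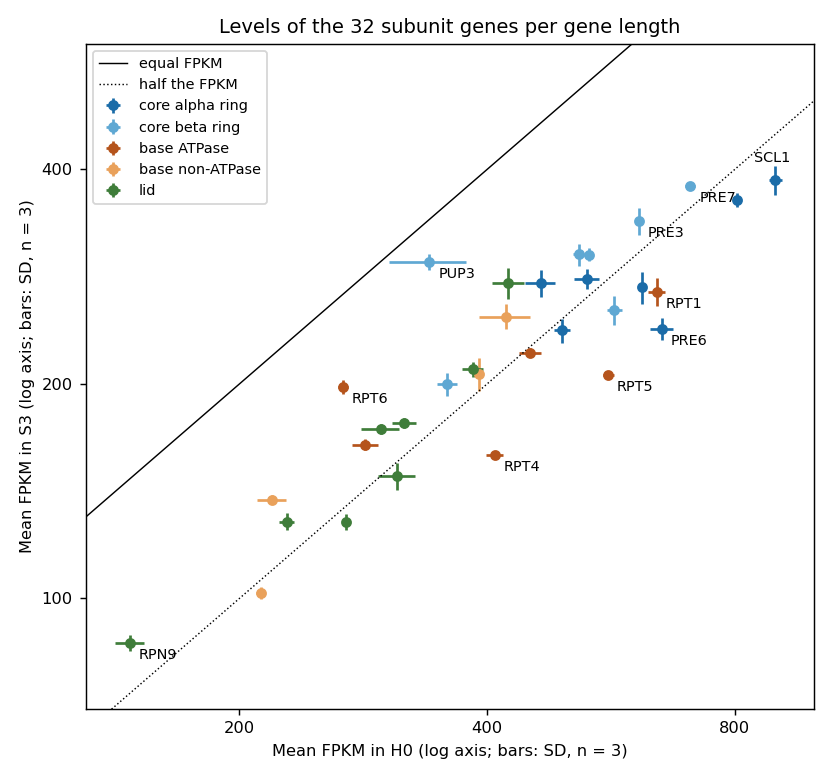
Mean FPKM of the 32 subunit genes in H0 (x axis) and S3 (y axis), both on log axes, with SD bars (n = 3) and colours by subcomplex; FPKM is on the scale of total counts. All points lie below the line of equal FPKM, PUP3 and RPT6 nearest to it. Several genes, among them RPT1 and SCL1, lie under the dotted line at 50% of the H0 level, with PRE6, RPT5 and RPT4 furthest under it.

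Falls were found in members with and without the full GGTGGCAAA. Of the 27 genes with GGTGGCAAA upstream, 25 fell, with a median log2 fold change of -0.56, and of the 7 without it 6 fell, with a median of -0.51. Among these 7, PRE5, PUP1, RPN8, RPN10 and UMP1 had the shorter GTGGCAA. RPN13, which fell (-0.43), and RPN4, which was not called, had neither. Whether the fall depends on the element was therefore not tested. The 2 genes with GGTGGCAAA that passed no test were PUP3 and RPT6. Outside the members 71 tested genes had the motif, of which 41 were lower (57.7%) and 17 higher, with a median of -0.28. Among all 5786 tested genes with an upstream window, 2120 were lower (36.6%) and 1950 were higher. Of all genes tested, 34.2% were higher. In 11 of the 71 the copy also lay in a member's window. The other 60 included 34 lower and 15 higher genes with a median of -0.23. Among the 60 the log2 fold changes ran from -1.32 (ECM29) to 1.86 (RPS27B, a ribosomal protein gene with a similar copy, RPS27A).

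**Figure D4:**
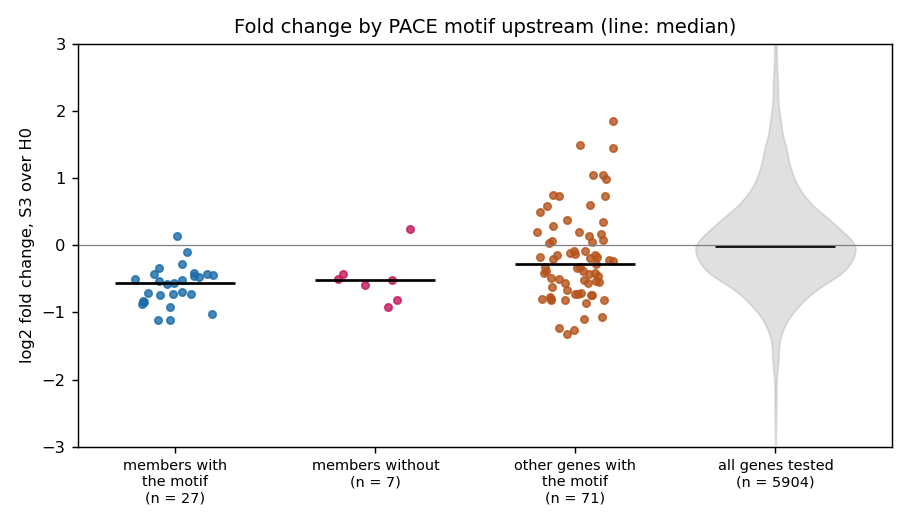
Log2 fold change of S3 over H0 (y axis) for members with and without GGTGGCAAA in the 500 upstream bases, other genes with it, and all genes tested (outline, drawn for changes within 3 of 0); points are genes, spread sideways at random, and lines are medians. The medians are -0.56, -0.51, -0.28 and -0.01 from left to right. Of the members without GGTGGCAAA, only RPN13 and RPN4 also lack the shorter GTGGCAA.

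Of 16 assembly and associated factors, 7 fell, 6 rose and 3 passed no test, with a median of -0.14; these shares are near those of all genes, 36.2% lower and 34.2% higher. Those that fell beyond 1 were ECM29, which tethers core and cap (-1.32, SE 0.075), and SPG5, a regulator of the proteasome in stationary phase (-1.14, SE 0.082). ECM29 had 109, 103 and 94.8 CPM in H0 and 38.0, 41.3 and 43.4 in S3. SPG5 had 167, 146 and 144 CPM in H0 and 75.0, 68.2 and 64.8 in S3, so both were apart in all libraries. Named after their values were seen, SEM1, which encodes a further small subunit of the lid, was at -0.68 and UBP6, a deubiquitinase bound to the cap, at -0.71, and both fell. The core activator BLM10 (0.59) and the base chaperone HSM3 (0.58) rose. Of the other base chaperone genes listed, NAS6 fell (-0.46), and NAS2 (-0.12) and RPN14 (-0.11) passed no test. The other genes of the list that rose were ADD66 (0.43), FUB1 (0.41), POC4 (0.35) and PBA1 (0.35), and IRC25 (-0.55) and HUL5 (-0.34) fell. All genes from BLM10 on were likewise named after their values were seen. With total-count scaling 10 of the 16 fell and 2 rose, where 57.6% of all genes were lower and 19.4% higher.

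Of 19 genes for ubiquitin and for delivery of substrates, 8 fell, 6 rose and 5 passed no test, with a median of -0.04, again near the shares of all genes (36.2% and 34.2%). DSK2, a shuttle that brings ubiquitinated proteins to the proteasome, fell most. Its CPM was 1079, 1126 and 1128 in H0 and 393, 376 and 401 in S3 (-1.51, SE 0.064, adjusted p = 3.00e-06 by edgeR). RPL40A, RPL40B and RPS31, which encode ubiquitin fused to a ribosomal protein, rose by 1.63, 1.43 and 1.61 on the log2 scale. RPS31 had 945, 1179 and 1229 CPM in H0 and 3611, 3386 and 3266 in S3. RPL40A had 264, 318 and 323 CPM in H0 and 948, 898 and 950 in S3, and RPL40B had 240, 312 and 329 in H0 and 810, 780 and 782 in S3. RPL40A and RPL40B are near-identical copies, and how their reads were divided is uncertain. The polyubiquitin gene UBI4, whose product is ubiquitin alone, was lower (-0.38), and so were UBA1, the ubiquitin-activating enzyme (-0.82), and SHP1 (-0.87) and UFD1 (-0.80), cofactors of the segregase Cdc48. CDC48 itself was higher at 0.17 (adjusted p = 0.0451 by edgeR), a call that was lost under several alternatives and turned to -0.16 with total-count scaling. SSM4 (0.97, SE 0.056) and RSP5 (0.41, SE 0.051) were higher too, which completes the 6 that rose. UBI4, UBA1, SHP1, UFD1, CDC48, SSM4 and RSP5 were named after their values were seen. With total-count scaling 14 of the 19 fell and 4 rose, where 57.6% of all genes were lower and 19.4% higher.

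The genes listed for factors that act on RPN4 or on its protein are too few for their counts to be set against the shares of all genes. Of the 4 transcription factor genes, HSF1 (-0.34, SE 0.064) and YAP1 (-0.33, SE 0.051) fell. HSF1 had 244, 223 and 213 CPM in H0 and 181, 174 and 181 in S3, and YAP1 had 250, 249 and 239 in H0 and 191, 196 and 200 in S3. PDR1 was at 0.12 and PDR3 at -0.11, and neither passed the test. With total-count scaling, under which 57.6% of all genes were lower, the 4 fell. Of the 4 genes listed for degradation of Rpn4, RAD6, a ubiquitin-conjugating enzyme, fell (-0.94, SE 0.048). UBR1, a ubiquitin ligase whose action on Rpn4 is not established here, rose (0.35, SE 0.057). RAD6 had 112, 118 and 114 CPM in H0 and 60.2, 60.3 and 58.2 in S3, and UBR1 had 83.3, 88.0 and 88.1 in H0 and 106, 117 and 108 in S3. The ligase gene UBR2 and MUB1, whose product binds Ubr2, were at -0.05 and 0.01 and passed no test. With total-count scaling 3 of the 4 fell and 0 rose, and UBR1 was at 0.02 and was not called.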

How the data were processed

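RNA of 3 H0 and 3 S3 libraries (NEBNext Ultra kit) was sequenced. The authors deposited counts of reads per gene, not normalized, and FPKM values, which are relative to gene length and to the total of the library. The submitters' processing notes name HTSeq 0.6.1 and DESeq 1.18.0. The aligner, genome build and use of strand are not given in the sources used here. Gene lengths implied by FPKM equalled R64 exon lengths within 0.5 bases for 5861 of 5867 genes. Of 6442 gene identifiers, 6436 matched R64, and the others held at most 0.012% of counts. No member overlaps another annotated gene. The total counts per library are given above.

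The test of S3 against H0 used R 4.3.3 with edgeR 4.0.16: filterByExpr, TMM factors (0.885 to 1.14), glmQLFit and glmQLFTest (two-sided, Benjamini-Hochberg adjustment over 5904 genes). A gene was called, and is said to have risen or fallen, at an adjusted p under 0.05. Standard errors come from the fold change and its F value. An exact permutation test of 3 against 3 libraries cannot go below p = 0.1 and was not used. Upstream regions are the 500 bases before the start codon in R64, and similar genes were searched with BLAST 2.17.0. Scripts were tested on simulated data. The alternatives were DESeq2 1.42.0 (size factors and Wald test), upper quartile factors, total counts, other filters, a replicate block, each library left out, and limma 3.58.1 on log2(FPKM + 1) or log2(FPKM + 0.1). Full values are given for RPN4, UMP1, the catalytic genes and the largest and smallest change of each group, and for listed genes called beyond 1 or the 2 largest changes. RPT4 and genes said to be so were named after their values were seen. The members and lists were chosen with earlier results of these data known.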

Additional observations from a re-analysis of the deposited data

How the results depend on the processing

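The count of members that fell ran from 31 to 32, and each alternative kept the median below that of all genes. Over the same settings the share of all genes that were lower ran from 32.2% to 57.6%. With total counts, log2(FPKM + 1) and log2(FPKM + 0.1), the median of the members was -0.886, -0.883 and -0.886. Under these 3 settings PUP3 stood at -0.196, -0.191 and -0.191 and RPN4 at -0.0949, -0.0592 and -0.0594, the opposite direction to the value with TMM factors, and neither was called. CDC48 also turned, to -0.164, -0.163 and -0.163, and each of these was called; it was not called with upper quartile factors, with no filter, with the replicate block or in 5 of the 6 fits with a library left out. With each library left out in turn, the median ran from -0.559 to -0.523, the count of members that fell from 31 to 32, the count that rose from 0 to 2, and RPN4 from 0.127 to 0.485. The count of 2 and the highest RPN4 value came without replicate 1 of H0. That fit also called more of all genes, with 2360 of 5921 lower (39.9%) and 2270 higher. The same settings for the other gene lists were chosen after seeing the data.

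With a replicate block 31 members fell, 0 rose, the median was -0.551 and RPN4 was at 0.275 (adjusted p = 0.148 by edgeR). Over all genes the block moved the calls from 2138 lower and 2022 higher to 2048 and 1950. Libraries of the same number correlated by -0.0071, 0.077 and 0.077 in their deviations from the group means. Replicate 1 of H0 correlated best with replicate 3 of S3, and replicates 2 and 3 of H0 each with the S3 library of their own number. The numbers were not treated as pairs in the main test. The lowest count of a member in a library was 1685. No test for an outlying value was run within groups of 3; the distance of replicate 1 of H0 from the others is given above.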
